A study of Homo sapiens with 4 samples.

Results

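The nuclear pore mRNAs are the transcripts of 31 protein-coding genes that encode nucleoporins, out of 63677 genes in the deposited count table. The genes were chosen by name: every protein-coding gene whose GENCODE v44 symbol is NUP followed by a number, plus TPR, RANBP2, POM121, POM121C, AHCTF1, SEH1L, SEC13, AAAS, NDC1 and RAE1. This choice was made with earlier results of these data known. Of the 31 genes, 30 passed the filter on low counts and were tested among 14645 genes. The remaining gene, POM121C, was listed at 0 in every library. It is a near-identical copy of POM121, so the counts of POM121 are uncertain. The counts were made on an older annotation, and whether that lists POM121C under another identifier was not settled, so the zero says nothing about its RNA.

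The data are RNA immunoprecipitation sequencing (RIP-seq) on nuclear extracts of HCT116, an established line from a human colorectal carcinoma, after 48 h of transient transfection with a pcDNA3.1 plasmid that expresses 3xFLAG-tagged ORC1. ORC1 belongs to the origin recognition complex, which marks sites where DNA replication can start. One group held 2 libraries of RNA recovered from uncrosslinked nuclear lysate with an anti-FLAG antibody (IP), and the other 2 libraries of the lysate RNA itself (Input), numbered replicate 1 and 2 in each. All 4 libraries came from ORC1-FLAG transfected cells, and no library from a control antibody or from untransfected cells was analysed here, so RNA held by beads or antibody cannot be told apart from RNA held by ORC1-FLAG. Because each library pools transfected and untransfected cells, more cells that carry an RNA and more RNA per cell also cannot be told apart.

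The nuclear pore is the channel through which protein and RNA pass between nucleus and cytoplasm. Its scaffold consists of stacked rings, with the Y complex in the outer rings and the NUP93 complex in the inner ring. Nucleoporins rich in phenylalanine-glycine (FG) repeats fill the channel and bind transport receptors. Filaments extend from the cytoplasmic face, where RANBP2 is the largest component, and a basket built of TPR extends into the nucleus.

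The libraries held 27483148 (IP replicate 1), 20280445 (IP replicate 2), 14677002 (Input replicate 1) and 9213877 (Input replicate 2) counts. The 30 tested genes had at least 276 counts in every library. Transcripts of ORC1 were far more abundant in replicate 2 (326098 counts in IP, 59163 in Input) than in replicate 1 (23064 and 5820), and the table does not separate RNA from the plasmid and from the endogenous gene. Of the epithelial markers, EPCAM, CDH1, KRT8 and KRT18 were present in every library, VIL1 was below 0.3 CPM (counts relative to the scaled library total), and LGALS4 was listed at 0. Of the markers of other cell types, PTPRC, PECAM1 and ALB were at or near 0, and the collagen gene COL1A1 lay between 7.90 and 26.7 CPM and was higher in the IP (log2 fold change of IP over Input 1.38 ± 0.27 SE).

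Relative to Input, 10 of the 30 tested nuclear pore mRNAs were enriched in the IP, 1 was depleted and 19 were neither. Enriched means a log2 fold change above 1 with an edgeR Benjamini-Hochberg adjusted p below 0.05 over all 14645 genes, and depleted means a log2 fold change below -1 with the same p. By this rule 10.5% of all genes tested were enriched and 8.3% were depleted, beside 33.3% and 3.33% of the nuclear pore mRNAs. The enriched mRNAs were, from the highest fold change down, TPR, RANBP2, AHCTF1, NUP205, NUP107, NUP88, NUP188, NUP160, NUP133 and NUP93, and the depleted one was SEH1L. The median log2 fold change of the 30 mRNAs was 0.20, with 22 above 0, against a median of 0.01 over all genes tested and 0.08 over protein-coding genes. Single mRNAs ranged from -1.30 to 2.74. In scaled CPM, both IP libraries lay above both Input libraries for 14 of the 30 (46.7%) and below for 5 (16.7%), beside 33.2% and 31.9% of all genes tested, so that groups without overlap were common with 2 libraries each.

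The number of calls depended on the scaling. IP and Input differed in RNA composition, with TMM scaling factors (trimmed mean of M values) of 0.758 and 0.868 in the IP and 1.19 and 1.28 in the Input libraries. Scaled by library size alone, the median of all genes moved to -0.59 and that of the nuclear pore mRNAs to -0.42, and only TPR and RANBP2 remained enriched while 5 mRNAs were depleted. Under that scaling 2.59% of all genes were enriched and 22.2% depleted. Relative to the median of all genes, the median of the nuclear pore mRNAs was 0.19 higher with TMM. Another scaling shifts all genes together and hardly alters this distance. With 1 library left out, the distance was 0.070 (IP replicate 1), 0.066 (Input replicate 2), 0.47 (IP replicate 2) and 0.43 (Input replicate 1). It was 0.53 with no count filter and 0.57 with DESeq2. These last settings kept genes with low counts that the main fit left out, so all genes formed a larger set there. The median of all genes was lower, at -0.34 and -0.33, against 0.01 in the main fit. That of the nuclear pore mRNAs hardly moved, at 0.19 and 0.24 against 0.20. Over protein-coding genes the median was 0.07 and 0.11, against 0.08 in the main fit. When the replicate number, which ties each IP to its own Input, was added to the edgeR model, 9 mRNAs were enriched and 2 depleted, against 13.4% of all genes enriched and 13.4% depleted. NUP93 then fell just short of the fold limit at 0.99, and NDC1 passed it at -1.05.

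**Figure D1:**
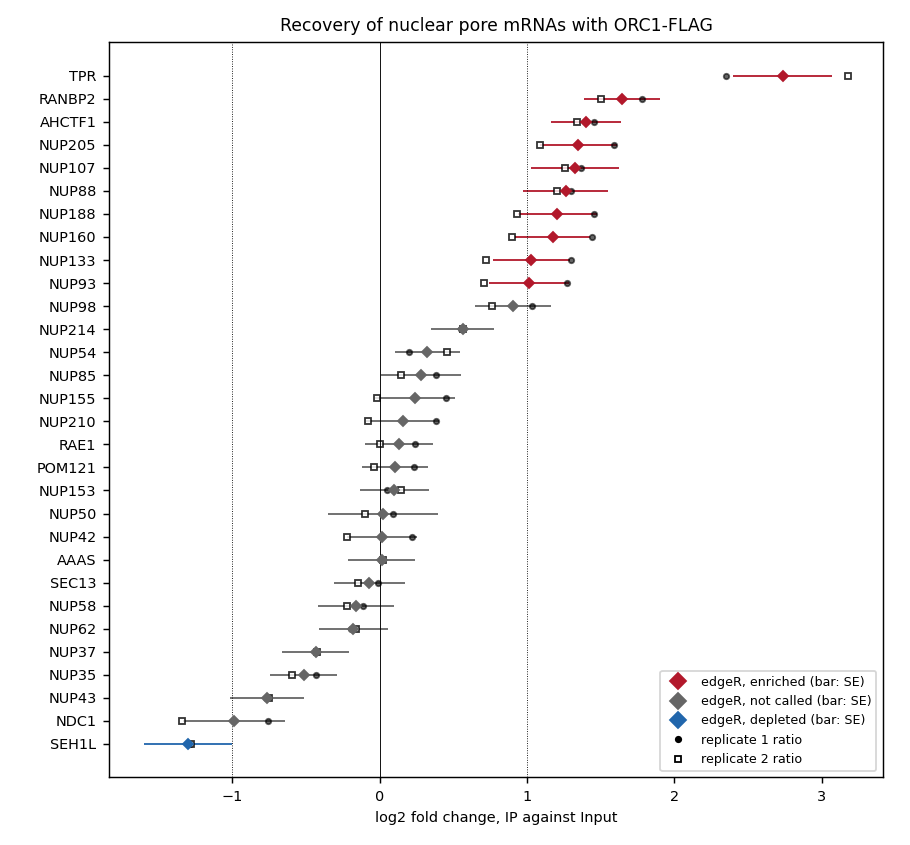
Log2 fold change of IP against Input for the 30 nuclear pore mRNAs tested, ordered by size; diamonds are edgeR estimates with SE, black circles and open squares the ratios of replicates 1 and 2, and dotted lines the fold limit of 1 in either direction. TPR stands apart at 2.74, the other 9 enriched mRNAs lie between 1.01 and 1.64, and SEH1L is lowest at -1.30.

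The basket mRNA TPR was recovered most strongly. TPR encodes a long coiled-coil protein that forms the basket filaments and takes part in mRNA export. Its gene lies on the reverse strand of chromosome 1 (GRCh38, chr1:186311652-186375693). It had 43488 and 42387 counts in the IP and 7130 and 3114 in Input, always replicate 1 first, which are 2088, 2411, 408 and 267 scaled CPM. Both IP libraries lay well above both Input libraries, by 5.11-fold in replicate 1 and 9.05-fold in replicate 2. The log2 fold change was 2.74 ± 0.34 (SE, 2 libraries a group; edgeR adjusted p = 0.0105), which placed TPR at rank 12 of the 14645 genes tested. Its gap of 1.09 to RANBP2, the next mRNA, was larger than the combined SE of the pair.

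Neither of the other basket mRNAs passed the test. NUP153, an FG nucleoporin that anchors TPR at the pore, was at 271 and 269 CPM in the IP and 261 and 243 CPM in Input, a log2 fold change of 0.10 ± 0.23 (edgeR adjusted p = 0.790). Levels of NUP50, a mobile basket protein that takes part in release of imported cargo, were 181 and 97.6 CPM in the IP and 170 and 105 CPM in Input. In NUP50 the replicates differed from each other more than the IP differed from Input, and its log2 fold change was 0.02 ± 0.37 (edgeR adjusted p = 0.974).

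TPR, RANBP2 and AHCTF1 are the members with the largest counts of GAAGAA in their coding sequences. Those coding sequences are also the longest among the members, at 7089, 9672 and 6798 bases. The study targeted tandem GAA repeats with an antisense oligonucleotide, and for this reason GAA-rich stretches are shown. Those of RANBP2, NUP88 and NUP37 hold the longer run GAAGAAGAA, and those of TPR, AHCTF1, NUP210 (a long mRNA that was not enriched) and SEH1L (the depleted mRNA) have the most GAAGAA, then GAA, of any such stretch. Each is a window of 30 bases of the RNA strand, written as DNA 5′ to 3′, from the coding sequence in GENCODE v44 on GRCh38, with GAA in capitals:
TPR: cagcatGAAGAActgatGAAGAAaactGAA
RANBP2: tgagGAAgatGAAGAAGAAttcttttgcaa
AHCTF1: aagGAAgagaGAAgccccaaGAAGAAaGAA
NUP88: gctaGAAgggGAAGAAGAAgatgaccacac
NUP37: tacgtttcagGAAGAAGAAgcagacgttga
NUP210: caagcagcgGAAgcacctgagcatGAAGAA
SEH1L: tttgaccGAAcagctgctgtatggGAAGAA
The windows lie in coding exons at chr1:186341339-186341368 (TPR, reverse strand), chr2:108764100-108764129 (RANBP2, forward), chr1:246850003-246850032 (AHCTF1, reverse), chr17:5405058-5405087 (NUP88, reverse), chr3:13321766-13321795 (NUP210, reverse) and chr18:12955535-12955564 (SEH1L, forward), and that of NUP37 spans an exon junction on chromosome 12.

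GAA content varied widely among the enriched mRNAs. The coding sequence of TPR held 27 copies of GAAGAA (3.81 per kb) and that of RANBP2 30 copies (3.10 per kb), while AHCTF1 held 15 (2.21 per kb). NUP107 held a single copy (0.36 per kb) and was enriched, whereas NUP50 held 5 (3.56 per kb) and NUP37 held 3 (3.07 per kb) and neither was. Across the 30 mRNAs, Spearman's rho between GAAGAA per kb of coding sequence and log2 fold change was 0.34, beside 0.29 over the 12534 protein-coding genes tested, a description only since members share libraries. The run GAAGAAGAA stood in the coding sequence of 3 of the 30 (RANBP2, NUP88 and NUP37) and was not found in that of TPR. Over all coding genes tested the share was 12.5%, and over enriched coding genes 36.9%, for the RNA strand only. Of the 10 enriched members, 2 held it (20.0%). In the longest transcript of each gene, the depleted mRNA SEH1L held the run as well. That made 4 of the 30, beside 14.6% of coding genes tested. A match is a description of letters and not a measured binding site.

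RANBP2 (chr2:108719482-108785810, forward strand) encodes the SUMO ligase and Ran-binding protein of the cytoplasmic filaments. It had 18180 and 13999 counts in the IP and 4436 and 3279 in Input, or 873 and 796 against 254 and 281 scaled CPM. The IP libraries were 3.44-fold and 2.84-fold above Input, and the log2 fold change was 1.64 ± 0.26 (edgeR adjusted p = 0.0117). RANBP2 has near-identical copies, the RGPD genes, so reads between them are uncertain. Of 7 RGPD genes, 2 passed the count filter, at far lower levels: RGPD8 had 5.67 and 5.69 CPM in the IP and 1.26 and 1.11 CPM in Input (log2 fold change 2.25 ± 0.39, edgeR adjusted p = 0.0134), and RGPD3 lay below 1 CPM in every library (2.79 ± 0.84, edgeR adjusted p = 0.0527).

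Of the 6 mRNAs of the cytoplasmic face, RANBP2 and NUP88 were enriched and the other 4 were not. NUP88, which holds the export platform at the pore together with NUP214, stood at 295 and 207 CPM in the IP and 120 and 89.7 CPM in Input, so that the groups did not overlap, and its log2 fold change was 1.26 ± 0.29 (edgeR adjusted p = 0.0252). On the opposite strand, RABEP1 and RPAIN overlap 35.5% of the exonic bases of NUP88, and whether the counting used strand is not given in the sources used here. The log2 fold changes of those neighbours were 0.73 ± 0.27 (RABEP1) and -0.01 ± 0.22 (RPAIN), both short of the call. Among the other tested members, opposite-strand overlap was highest for POM121, at 19.0% of exonic bases.

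NUP214, the partner of NUP88 and an FG nucleoporin, was at 90.3 and 92.8 CPM in the IP and 61.5 and 62.6 CPM in Input. The replicates of NUP214 nearly coincided and the groups did not overlap, but its log2 fold change of 0.56 ± 0.21 did not pass (edgeR adjusted p = 0.0980). The export cofactor RAE1 (0.13 ± 0.23), the FG protein NUP42, which works with the mRNA export factor GLE1 (0.01 ± 0.24), and AAAS, the protein altered in triple A syndrome (0.01 ± 0.23), lay close to 0.

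**Figure D2:**
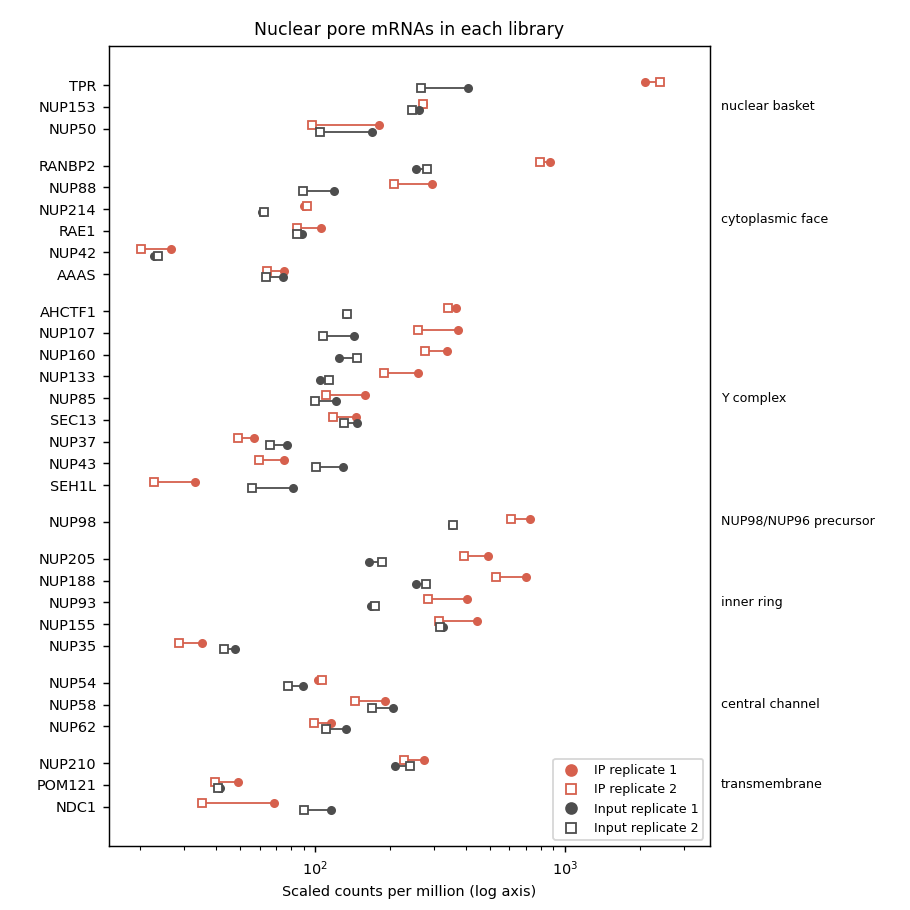
Scaled CPM (log axis) of the 30 nuclear pore mRNAs tested in each library, grouped by place in the pore; red marks are IP and grey marks Input, circles replicate 1 and squares replicate 2. The IP marks of TPR at 2088 and 2411 lie far to the right of its Input marks at 408 and 267, and those of SEH1L lie to the left of its Input marks.

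The Y complex, the scaffold of the outer rings, was split. Of its 9 mRNAs, AHCTF1, NUP107, NUP160 and NUP133 were enriched, SEH1L was depleted, and NUP85, SEC13, NUP37 and NUP43 were neither. AHCTF1, also called ELYS, brings the Y complex to chromatin when the nucleus re-forms after mitosis. Its levels were 365 and 341 CPM in the IP and 133 and 135 CPM in Input, and its log2 fold change of 1.40 ± 0.24 was the largest of the complex (edgeR adjusted p = 0.0132). NUP107, which joins with NUP133 in the stem of the Y, stood at 372 and 257 CPM in the IP against 144 and 107 CPM in Input (1.32 ± 0.30, edgeR adjusted p = 0.0238).

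NUP160, in one arm of the Y, was at 338 and 275 CPM in the IP and 125 and 147 CPM in Input (1.17 ± 0.25, edgeR adjusted p = 0.0214). NUP133, at the end of the stem, was at 258 and 188 CPM in the IP and 104 and 114 CPM in Input (1.03 ± 0.26, edgeR adjusted p = 0.0323), close to the fold limit.

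SEH1L encodes a small beta-propeller protein of the Y complex that also belongs to the GATOR complex upstream of mTORC1. It had 691 and 400 counts in the IP and 1428 and 655 in Input, or 33.2 and 22.8 against 81.8 and 56.1 scaled CPM, so both IP libraries lay below both Input libraries. The replicate log2 ratios were -1.29 and -1.28, and the fitted log2 fold change was -1.30 ± 0.30 (edgeR adjusted p = 0.0248), at rank 13314 of 14645. This call was lost without IP replicate 2 (-1.01) and without Input replicate 1 (-0.96). NUP43, another beta-propeller subunit, was at 75.3 and 59.8 CPM in the IP and 129 and 101 CPM in Input (-0.77 ± 0.25, edgeR adjusted p = 0.0680). For NUP37 the log2 fold change was -0.44 ± 0.23, for SEC13, which is shared with the COPII coat, -0.07 ± 0.24, and for NUP85 0.28 ± 0.27, and none of these passed.

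The imbalance within the Y complex could be read without any scaling, as a ratio of summed counts within each library. The sum of AHCTF1, NUP107, NUP160 and NUP133 was 4.27 and 4.25 times that of SEC13, NUP37, NUP43 and SEH1L in the IP, and 1.16 and 1.42 times in Input. These 2 sets were formed after their values were seen, so their separation is a description with no test. They are the large and the small subunits, so their coding lengths differ by choice, at 2775 to 6798 bases and 966 to 1263 bases. NUP85, with 1968 coding bases and a log2 fold change of 0.28, was placed in neither set.

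Of the 5 inner ring mRNAs, NUP205, NUP188 and NUP93 were enriched, and the group median of 1.01 was the highest among parts of the pore with more than 1 gene. The median coding length of the group was 4173 bases, and coding genes of 3615 bases and more had a median log2 fold change of 1.07. NUP205 and NUP188 encode related large scaffold proteins. NUP205 was at 494 and 394 CPM in the IP and 164 and 185 CPM in Input (1.35 ± 0.26, edgeR adjusted p = 0.0166). NUP188 was at 696 and 530 CPM in the IP and 253 and 278 CPM in Input (1.21 ± 0.27, edgeR adjusted p = 0.0232). NUP93, the linker that holds the inner ring together, was at 406 and 283 CPM in the IP and 168 and 173 CPM in Input (1.01 ± 0.27, edgeR adjusted p = 0.0391). NUP93 sat at the fold limit.

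The other inner ring mRNAs did not pass. NUP155, which links the ring to the membrane, was at 445 and 312 CPM in the IP and 326 and 316 CPM in Input, where the groups overlapped (0.24 ± 0.27, edgeR adjusted p = 0.561). NUP35, a membrane-binding partner of NUP155 and NUP93, was lower in both IP libraries, at 35.2 and 28.5 CPM against 47.8 and 43.4 CPM (-0.52 ± 0.23, edgeR adjusted p = 0.141).

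NUP98 is translated as a precursor that is cut into the FG nucleoporin NUP98 and the Y complex subunit NUP96, and reads do not tell these products apart. Its levels of 723 and 606 CPM in the IP and 353 and 357 CPM in Input did not overlap. The log2 fold change of 0.90 ± 0.26 had an edgeR adjusted p of 0.0440 but stayed below the fold limit of 1, and NUP98 was the 1 member in this position.

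None of the 3 central channel mRNAs was enriched or depleted. These FG proteins form a complex that lines the transport channel, and their log2 fold changes were 0.32 ± 0.22 for NUP54, -0.16 ± 0.26 for NUP58 and -0.18 ± 0.24 for NUP62. For NUP62, 11.96% of exonic bases are shared with other genes on its strand, so its counts are less certain. In the wider class of 10 tested mRNAs for FG nucleoporins (NUP98, NUP54, NUP58, NUP62, RANBP2, NUP214, NUP42, NUP153, NUP50 and POM121), 1 was enriched (RANBP2) and the median was 0.10, beside 10.5% enriched and a median of 0.01 over all genes tested, so its count was at the background. That class was formed after values were seen and was given no test.

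The transmembrane nucleoporins anchor the pore in the nuclear envelope, and none of the 3 tested passed. NUP210 was at 274 and 227 CPM in the IP and 210 and 240 CPM in Input, with overlapping groups (0.16 ± 0.25, edgeR adjusted p = 0.683). POM121 was at 49.1 and 39.9 CPM in the IP and 41.8 and 41.0 CPM in Input (0.11 ± 0.22, edgeR adjusted p = 0.765). NDC1 was lower in both IP libraries, at 68.3 and 35.4 CPM against 116 and 90.5 CPM, and missed the call by both limits (-0.99 ± 0.35, edgeR adjusted p = 0.0793), although it was depleted with the replicate block.

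Ordered by log2 fold change, most neighbours in the list of 30 were closer than the combined SE of the pair. The gap to the next mRNA exceeded that SE at 2 places only, between TPR and RANBP2 and between NUP98 and NUP214 (0.34). From RANBP2 to NUP98, and from NUP214 to SEH1L, the values ran on without such a step. All mRNAs share the same libraries, so the combined SE does not decide whether 2 neighbours differ. Between the log2 ratios of replicates 1 and 2, Pearson r was 0.94 over 30 mRNAs, which share libraries and include the outlying TPR. Of the 30 mRNAs, 25 had the same sign in both replicates. The median ratio was 0.31 in replicate 1 and 0.083 in replicate 2. Both replicate ratios were above 1 for 6 mRNAs, TPR, RANBP2, AHCTF1, NUP205, NUP107 and NUP88. Of the 10 enriched mRNAs, 9 had the lower ratio in replicate 2 and TPR the higher, at 2.35 in replicate 1 and 3.18 in replicate 2. The ORC1 transcript level differed between replicates by the counts given above, and its part in these differences was not tested. For a single mRNA, an exact permutation test of 2 against 2 libraries cannot give a p below 0.333.

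The counts on nuclear pore genes can also be given as shares of their own sum, which need no scaling. The classes used here follow the calls, so a lower share of the mRNAs that were not enriched in the IP follows from the choice and is a description. Of all counts on the member genes, TPR took 8.82% and 6.26% in Input and 22.2% and 29.2% in the IP. RANBP2 took 5.49% and 6.59% in Input and 9.28% and 9.63% in the IP. The other 8 enriched mRNAs together held 26.1% and 28.9% in Input and 34.3% and 29.9% in the IP, and the mRNAs that were not enriched went from 59.5% and 58.3% down to 34.2% and 31.3%. The share of SEH1L was 1.77% and 1.32% in Input and 0.353% and 0.275% in the IP. All member genes together were 0.551% and 0.540% of Input counts and 0.713% and 0.717% of IP counts. Per kb of transcript, TPR was not the most abundant nuclear pore mRNA of the nucleus: at 42.4 and 27.7 CPM per kb it ranked 8th and 18th in Input, and at 217 and 250 CPM per kb it ranked 1st in both IP libraries.

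**Figure D3:**
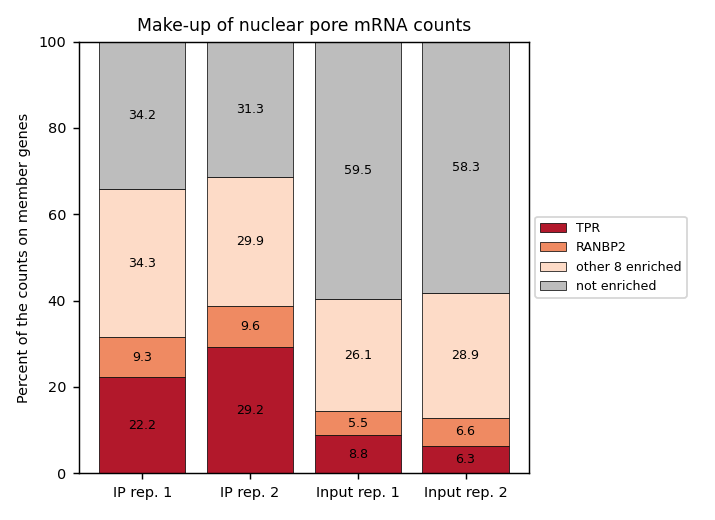
Share of the counts on nuclear pore genes (percent) in each library, divided into TPR, RANBP2, the other 8 enriched mRNAs and those not enriched, a division made by the same calls. TPR grows from 8.82% and 6.26% in the Input libraries to 22.2% and 29.2% in the IP libraries, and the share of mRNAs not enriched falls from 59.5% and 58.3% to 34.2% and 31.3%.

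Recovery rose with coding length across the nuclear pore mRNAs. Spearman's rho between log2 fold change and coding length was 0.77 over the 30 mRNAs, 0.78 and 0.74 in the separate replicates, 0.74 without TPR, and 0.59 over the 12534 protein-coding genes tested. The number of exons gave 0.77 and 0.53. For the length of the 3′ UTR these were 0.10 and -0.08, for GC content of the transcript -0.04 and 0.07, and for the Input level per kb -0.24 and 0.02. These are descriptions over genes that share the same 4 libraries. The median coding length of the 30 was 2340 bases and the median exon number 18.5, against 1432.5 bases and 9 exons over all coding genes tested.

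Because nuclear pore mRNAs are long, they were set beside genes of the same coding length. When coding genes were divided into 10 classes by coding length, 12 members fell in the longest class, of 3615 bases and more. In that class 46.6% of 1253 genes were enriched, with a median log2 fold change of 1.07, and 6 of the 12 members were. Of all 30 members, 16 lay above the median of their class. TPR lay 1.67 above the median, and RANBP2 0.57, AHCTF1 0.33 and NUP205 0.28 above. The shorter mRNAs NUP88 and NUP107 lay 0.81 and 0.68 above the medians of their own classes.

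Other long members lay below the genes of their length. NUP153 was 0.97, NUP210 0.92, NUP155 0.83 and NUP214 0.51 lower than the class median in log2 fold change, as was POM121 by 0.97. Among shorter mRNAs, NDC1 and SEH1L were each 1.27 below the median of their class. No test of these distances was made.

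**Figure D4:**
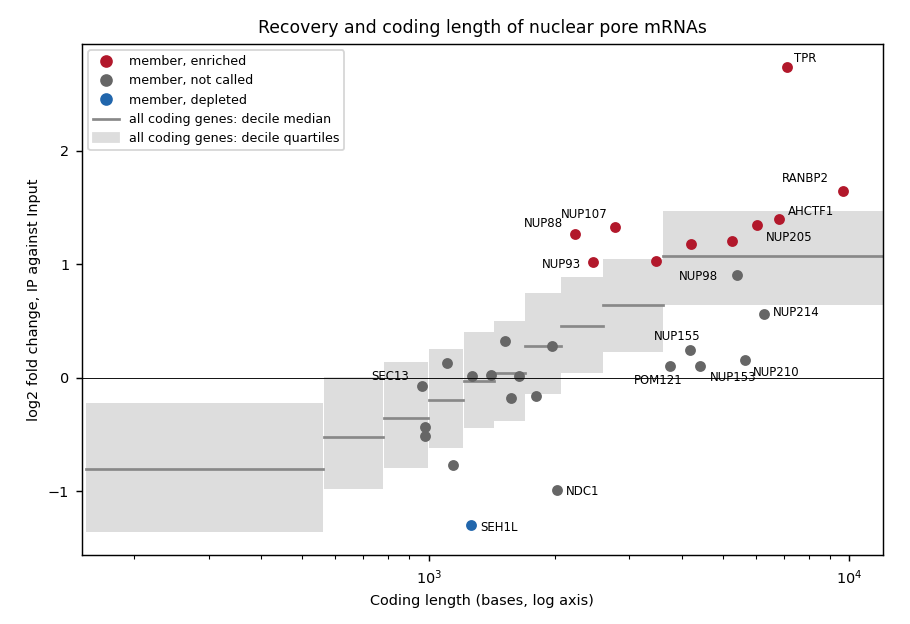
Log2 fold change of IP against Input (vertical axis) by coding length in bases (log axis) for the 30 nuclear pore mRNAs tested; grey bars and lines give the quartiles and median of all coding genes in 10 length classes. TPR lies 1.67 above the median of the longest class, while NUP153, POM121, NUP210 and NUP155 lie 0.83 to 0.97 below it and SEH1L and NDC1 each 1.27 below theirs.

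The soluble transport machinery that uses the pore was measured in the same fit. Of 49 tested mRNAs for importins, exportins, the Ran cycle and mRNA export, 12 were enriched (24.5%, beside 10.5% of all genes) and 1 was depleted (2.04%, beside 8.3%), with a median log2 fold change of 0.37. Scaled by library size alone, 2 were enriched and 7 depleted, where all genes gave 2.59% and 22.2%. Importins, which carry proteins into the nucleus, had 5 of 18 enriched and a median of 0.73, from IPO5 at 1.55 ± 0.32 to KPNA1 at 1.10 ± 0.22, with IPO7, KPNA2 and KPNB1 between. None of the 7 exportins was enriched (median 0.09), and none of the 7 genes of the Ran cycle, which gives transport its direction (median 0.20). The exportins have 2886 to 3612 coding bases, and the importins a median of 2692.5. In the length class of 2598 to 3612 bases, 24.2% of coding genes were enriched, with a median of 0.64.

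Of the 17 mRNA export genes, 7 were enriched (41.2%, beside 10.5% of all genes) and 1 was depleted (5.88%, beside 8.3%). Scaled by library size alone, 2 were enriched and 4 depleted, where all genes gave 2.59% and 22.2%. THOC2, the largest THO complex subunit, was at 436 and 441 CPM in the IP and 137 and 82.9 CPM in Input (2.00 ± 0.31, edgeR adjusted p = 0.0118). NXT1, the small partner of the export receptor NXF1, was at 6.15 and 7.22 CPM in the IP and 24.4 and 18.9 CPM in Input (-1.70 ± 0.26, edgeR adjusted p = 0.0112). The other enriched genes of this list were NXF1, GLE1, DDX19B, MCM3AP, THOC1 and THOC5. NXF1 and NXT1, which act as a pair, thus stood on opposite sides. Their coding lengths differ, at 1857 and 420 bases, and the medians of their length classes were 0.28 and -0.80.

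Of 13 genes of the lamina and nuclear envelope, which border the pore, 4 were enriched (SYNE1, SYNE2, LMNA and LMNB1) and 1 was depleted. These shares were 30.8% and 7.69%, beside 10.5% and 8.3% of all genes tested. The depleted share was thus near the background. The median was 0.55. SYNE1, which encodes a giant nesprin that ties the nucleus to the cytoskeleton, reached 2.39 ± 0.30 (edgeR adjusted p = 0.0105). BANF1, a small protein that bridges DNA and the envelope, was at -1.63 ± 0.33 (edgeR adjusted p = 0.0186). SYNE1 and SYNE2 have 26391 and 20721 coding bases, and BANF1 has 267. In the longest length class 46.6% of coding genes were enriched. In the shortest class the median log2 fold change was -0.80.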

How the data were processed

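Nuclear RNA of ORC1-FLAG transfected HCT116 cells was sequenced after ribosomal depletion (TruSeq Stranded Total RNA) from 2 IP and 2 Input libraries. The deposited values are raw read counts per gene, which the authors made with Trimmomatic, STAR and featureCounts on hg19. The annotation release, the strand setting and the handling of multimapping reads are not given in the sources used here. Coordinates and sequences are from GENCODE v44 on GRCh38, joined by Ensembl identifier, which 380 tested genes lack.

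IP was compared with Input in R 4.3.3 with edgeR 4.0.16 (robust quasi-likelihood test), using filterByExpr, TMM scaling and group as the only term. Replicate log2 ratios used TMM-scaled CPM plus 0.5. Fold changes are IP over Input, with SE from the F statistic. The scripts were tested on simulated data in which 200 of 14645 genes were changed. There edgeR recovered 76.5% of them with 18 false calls, and the fit with the replicate block 78% with 39 false calls. The study states duplicate anti-FLAG experiments and independent repeats in general, but no separate cultures for these libraries, so p-values may measure partly technical spread. Reads carry no molecular identifiers.

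IP and Input of 1 number came from the same RIP replicate per the labels, and their deviations from the group means correlated (r = 0.647), so numbers were taken as pairs in the blocked fit. All members were named. Of the other lists, the called genes with the highest and lowest fold change and the RGPD copies were named by rule, and the other called genes, the neighbours of NUP88 and the compared sets were named after their values were seen. The members and lists were chosen with earlier results of these data known. Alternatives were DESeq2 1.42.0, limma voom 3.58.1, other scalings and filters, a replicate block and leaving out each library.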

Additional observations from a re-analysis of the deposited data

How the results depend on the processing

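TPR and RANBP2 were enriched in all 12 alternatives, and AHCTF1 and NUP205 in 11, all but library size. With DESeq2 every member kept its call and direction. Members enriched numbered 2 with library size only and 4 to 10 when 1 library was left out (4 without IP replicate 1, 6 without Input replicate 2, where the lone library of a group is assumed to vary like the other group). Members depleted numbered 5 with library size only, 2 with upper-quartile scaling, 2 with the replicate block, and 0 to 3 with 1 library left out (0 without IP replicate 2 or Input replicate 1). Nuclear transport genes enriched numbered 2 with library size only and 6 to 17 with 1 library left out (6 without IP replicate 1 or Input replicate 2), and depleted 7 with library size only, 2 with upper-quartile scaling and 1 to 4 with 1 library left out. The members' median was -0.42 with library size only, 0.015 with upper-quartile scaling and 0.030 to 0.40 with 1 library left out. The cause of these shifts was not tested. All genes gave 2.59% enriched and 22.2% depleted with library size only, and 13.4% and 13.4% with the replicate block. For the other settings no share of all genes was taken. Their counts therefore do not show whether the members moved differently from all genes. NUP107, NUP88, NUP133 and NUP93 lost the call when either IP replicate 1 or Input replicate 2 was absent, and NUP160 and NUP188 when IP replicate 1 was. With upper-quartile scaling NUP160, NUP133 and NUP93 lost it, and with library size only all enriched members but TPR and RANBP2 did. NUP93 was also lost with size factors by relative log expression (RLE), voom, both other count filters and the replicate block, and NUP133 with both filters. The replicate block changed no other member's call than those of NUP93 and NDC1, and it also called RGPD3 (2.81).

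Reversals of sign were those of mRNAs that no fit called. With library size only they were NUP85 at -0.33, NUP54 -0.27, NUP214 -0.038, RAE1 -0.48, NUP42 -0.60, AAAS -0.59, NUP155 -0.38, NUP153 -0.50, NUP50 -0.60, NUP210 -0.46 and POM121 -0.50. With upper-quartile scaling they were RAE1 at -0.047, NUP42 -0.17, AAAS -0.16, NUP153 -0.068, NUP50 -0.16, NUP210 -0.027 and POM121 -0.071. With RLE they were NUP42 at -0.0099, AAAS -0.016 and NUP50 -0.012, with a minimum of 1 CPM in 2 libraries NUP42 -0.020, AAAS -0.019 and NUP50 -0.012, and with no count filter AAAS -0.010 and NUP50 -0.025. NUP50 was at -0.0011 with voom and -0.0034 with the replicate block. With 1 library left out, AAAS ranged from -0.25 to 0.17, NUP153 from -0.10 to 0.19, NUP42 from -0.15 to 0.25, NUP50 from -0.45 to 0.45, NUP58 from -0.45 to 0.071, NUP85 from -0.0054 to 0.57, POM121 from -0.059 to 0.30, RAE1 from -0.057 to 0.33 and SEC13 from -0.31 to 0.13.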
